A study of Mus musculus with 15 samples.

Results

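The genes described here encode amino acid transporters of the solute carrier families Slc1, Slc3, Slc7, Slc36, Slc38 and Slc43. They were taken by symbol from the deposited table of counts corrected for DNA contamination, and 44 of its 24084 genes matched. Of these, 42 are solute carriers (7 in Slc1, 2 in Slc3, 15 in Slc7, 4 in Slc36, 11 in Slc38 and 3 in Slc43), and 2 are transcripts named for the opposite strand (Slc7a6os and Slc36a1os).

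The study sorted F4/80+ CD45+ cells, the surface phenotype of tissue macrophages, from C57BL/6J mice and sequenced their RNA by a low-input method directly ex vivo. The 15 libraries form 6 groups by source. SAM ganglia (3 libraries) came from the superior cervical ganglion, a sympathetic ganglion, and SAM fibers (2 libraries) from sympathetic nerve fibers dissected out of inguinal fat. The adipose groups are sATM from the subcutaneous depot and vATM from the visceral depot (2 libraries each). SpM came from spleen and microglia from brain (3 libraries each). SAM stands for sympathetic neuron-associated macrophages and ATM for adipose tissue macrophages. Tissues came from 10 mice, and the labels do not say which animals gave which library, so every p-value rests on the spread among libraries, and that spread may be technical. No genotype, age or treatment was compared; all titles carry the tag ND, which the labels do not explain. Fat, spleen and brain were digested with collagenase for 30 min, fibers with hyaluronidase for 30 min and then collagenase for 15 min, and ganglia with collagenase for 10 min and then trypsin for 30 min, all at 37 °C. Tissue and digestion cannot be told apart where they differ.

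Libraries held 2.55 to 12.52 M (mega) corrected counts, of which 46.1 to 71.5% fell on the ribosomal RNA-collecting genes Rn45s, Lars2 and Mir6236. The 10 macrophage core markers summed to between 4640 and 13210 CPM (counts per M of a library after scaling) in every library. The make-up of that sum was uneven. Lyz2 held 8006 of 10800 CPM in sATM replicate 1, but 94.1 to 116 CPM in SpM. Csf1r was at 757 CPM or more in every library, while Mertk was at 3.29 in fiber replicate 1 and Itgam at 3.06 to 6.49 in SpM. The 9 microglial markers summed to 16270.0 to 16930.0 CPM in microglia against 88.9 to 2637 elsewhere, and the 7 red pulp markers to 9329 to 14320.0 CPM in SpM against 97.6 to 267 elsewhere. The 10 adipose and perivascular macrophage markers summed to 9348 to 13020.0 CPM in vATM and 1989 to 6437 in sATM. The sATM range overlapped ganglia (1922 to 3123) and fibers (1274 to 2084). The 2 fiber libraries stood apart from each other, with a correlation of log2 values of 0.605 where other pairs within a group reached 0.781 to 0.959. Reads over olfactory receptor genes, which mark DNA in the libraries, were most frequent in fiber replicate 1 (1171 CPM in the uncorrected table), microglia replicate 2 (1043) and ganglia replicate 3 (821). In fiber replicate 1 the correction left 20 of the 44 transporter genes listed at 0, and 19 of those 20 had at least 100 uncorrected reads, so a 0 there may be a failed estimate. The same held for 11 of 17 genes at 0 in microglia replicate 2, 9 of 13 in SpM replicate 3, 8 of 12 in fiber replicate 2, 8 of 9 in microglia replicate 3 and 7 of 10 in ganglia replicate 3. It also held for 7 of 16 in sATM replicate 2, 5 of 11 each in vATM replicate 2 and SpM replicate 2, 2 of 12 in ganglia replicate 2 and 1 of 13 in SpM replicate 1. Any level of 0 in these libraries carries this doubt.

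Most amino acids cross membranes through such carriers. The Slc1 family takes up glutamate, aspartate and small neutral amino acids with sodium. Many Slc7 proteins are light chains that reach the cell surface bound to the heavy chain Slc3a2 (CD98, 4F2hc), while the cationic amino acid transporters of the same family work alone. Slc38 proteins carry glutamine and other small neutral amino acids, Slc36 proteins move small amino acids with protons, and Slc43 proteins let large neutral amino acids pass down their gradient. Several Slc36 and Slc38 proteins sit on the lysosome, where amino acid release from digested protein is sensed by the kinase complex mTORC1. In macrophages, transporters of arginine, glutamine and cystine feed nitric oxide, energy and glutathione metabolism.

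Of the 44 genes, 28 passed the filter on low counts and were tested, and the other 16 did not. Counts of transporter genes here cover all genes matched by symbol, so the 28 include the opposite-strand transcript Slc7a6os. Across the 6 groups, 15 of the 28 (53.6%) differed, against 22.1% of all 15289 genes tested. A gene was called where the Benjamini-Hochberg adjusted p over all genes, from edgeR's quasi-likelihood test, was below 0.05 and the fitted group means spanned at least 1 log2 unit. The median span was 3.03 log2 units for the transporter genes and 2.64 for all genes. Among the 15 called, SpM and microglia each held the highest mean for 5, SAM fibers for 3, and sATM and vATM for 1 each. The lowest mean fell in sATM for 5, in vATM and microglia for 3 each, in SpM for 2, and in ganglia and fibers for 1 each. On the uncorrected gene-body counts, which include intronic and DNA reads, 2 of the 28 were called across the groups (Slc1a3 and Slc1a5), and of the 48 calls of a gene in the 8 planned comparisons, 7 were kept. Bulk values cannot tell fewer cells of a type from less RNA per cell.

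**Figure D1:**
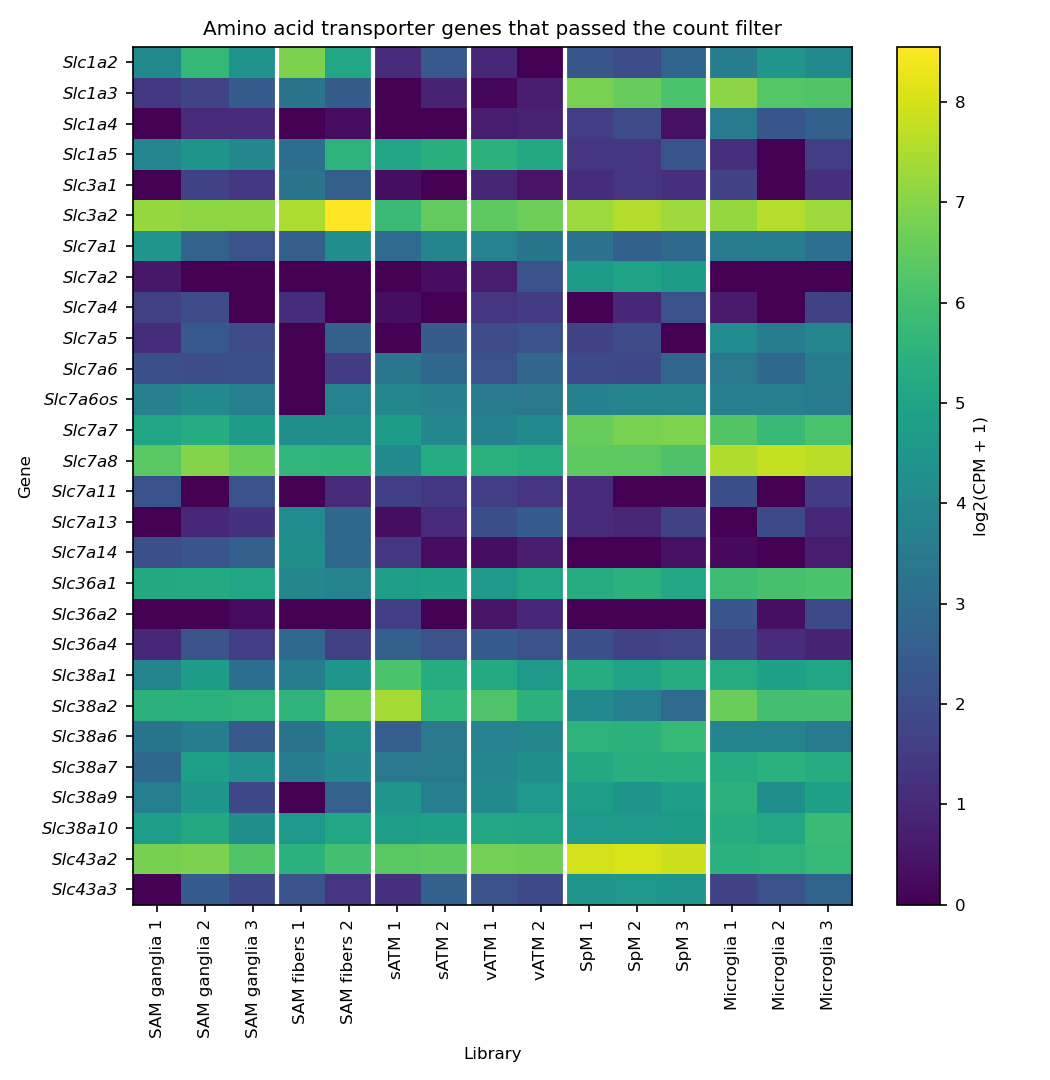
Colour gives log2(CPM + 1) for the 28 transporter genes that passed the count filter (vertical axis) in the 15 libraries (horizontal axis, white lines between groups). Slc1a3, Slc7a7 and Slc38a7 are brighter in the SpM and microglia columns than in the others, and Slc1a5 is darker there.

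As a share of counts outside those 3 genes that collect ribosomal RNA reads, the 44 genes made up 0.251 to 0.272% in SpM and 0.242 to 0.253% in microglia. The share was 0.168 to 0.187% in fibers, 0.133 to 0.173% in ganglia, 0.122 to 0.157% in sATM and 0.129 to 0.134% in vATM. By this share, all SpM and microglia libraries therefore lay above every library of the other 4 groups. Levels between genes were compared per transcript length, in RPKM (reads per kilobase of gene and per M reads). Summed over the transporter genes in RPKM, the groups overlapped: fiber replicate 2 (269.2) exceeded SpM replicate 1 (263.6) and microglia replicate 1 (253.9). On that scale Slc3a2 had the highest mean of all 42 carriers in each of the 6 groups, although single libraries could differ. Slc38a2 exceeded it in sATM replicate 1 (31.7 against 17.7 RPKM), and Slc7a7 in SpM replicate 3 (61.9 against 61.7). By group mean the gene in second place was Slc7a8 in ganglia (23.8 ± 6.36 RPKM, SD) and microglia (60.8 ± 15.6), Slc7a7 in SpM (56.4 ± 8.70), Slc38a2 in fibers (16.2 ± 11.3) and sATM (21.4 ± 14.6), and Slc43a2 in vATM (11.8 ± 2.12). That place was not stable within the groups of 2 libraries: it fell to Slc7a8 in fiber replicate 1 (9.85 RPKM), and to Slc1a5 in sATM replicate 2 (15.6) and vATM replicate 1 (10.6).

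Among the sodium-coupled Slc1 carriers, Slc1a3 (GLAST, EAAT1), a glutamate and aspartate importer best known from astrocytes, had the smallest adjusted p of the 28 genes across the groups (2.01e-07, edgeR; NM_148938, chr15:8634124-8710807, minus strand, build mm10). In SpM its level was 112, 94.3 and 69.2 CPM in replicates 1 to 3, and in microglia 133, 78.02 and 74.3 CPM. In fibers it was 8.67 and 4.79 CPM, in ganglia 1.62, 2.39 and 4.61, in sATM 0 and 0.805 and in vATM 0.120 and 0.615. Each SpM and microglia library lay above each of the other 9, with no overlap. Microglia exceeded the mean of the other 5 groups by a log2 fold change of 4.87 ± 0.34 (SE), edgeR adjusted p = 5.77e-08. For SpM against its other 5 groups the value was 4.82 ± 0.34 (SE), edgeR adjusted p = 5.92e-08; the 2 comparisons share libraries. SpM and microglia themselves differed by less than the spread, with a log2 difference of -0.05 ± 0.44 (SE), edgeR adjusted p = 0.974. Fat macrophages (sATM and vATM) lay below the mean of the other 4 groups, with a log2 fold change of -5.49 ± 0.52 (SE), edgeR adjusted p = 2.90e-06. Astrocyte markers (8 genes) summed to 5.62 to 18.2 CPM in microglia and 11.6 to 12.8 in SpM, and to 57.9 to 110.3 in fibers. In microglia replicates 1 to 3, Gfap was at 0, 0.842 and 0 CPM, Aqp4 at 0.0865, 5.05 and 0, and Aldh1l1 at 0.173, 3.65 and 1.82. The part of these cells in the Slc1a3 values was not tested.

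Slc1a5 (ASCT2), the exchanger through which many dividing and activated cells take up glutamine, had nearly the opposite distribution (NM_009201, chr7:16781346-16798274, plus strand). It reached 43.8 and 34.7 CPM in vATM and 31.3 and 41.5 in sATM. Values were 14.1, 20.3 and 14.8 CPM in ganglia and 7.47 and 44.97 in fibers. SpM held 1.58, 1.53 and 3.65 CPM and microglia 1.21, 0 and 1.98. All 6 SpM and microglia libraries were below all 9 others, while the 2 fiber libraries spanned the whole range of ganglia and fat. Fat macrophages exceeded the other 4 groups by a log2 fold change of 2.70 ± 0.41 (SE), edgeR adjusted p = 3.40e-04. Microglia lay below the other 5, at -3.83 ± 0.67 (SE), edgeR adjusted p = 6.37e-04, and so did SpM, at -2.75 ± 0.60 (SE), edgeR adjusted p = 0.0045. SAM as a whole exceeded the other 4 groups by 1.41 ± 0.41 (SE), edgeR adjusted p = 0.0361, but this call was lost when any of 11 libraries was left out, with adjusted p between 0.053 and 0.377. Those were all 3 ganglia, both sATM and both vATM libraries, fiber replicate 2, SpM replicates 1 and 2 and microglia replicate 1. Without fiber replicate 2 the SAM difference was 0.47, edgeR adjusted p = 0.377.

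Slc1a2 (GLT-1, EAAT2), the main glutamate importer of astrocytes, was highest in the nerve-associated groups (NM_001077514, chr2:102658683-102790784, plus strand). The fiber libraries held 117 and 33.3 CPM and the ganglia 15.9, 50.5 and 19.7. Microglia held 11.3, 21.1 and 15.96 CPM. SpM, sATM and vATM stayed lower, at 3.91, 3.06 and 5.78, 1.02 and 4.14 and 0.958 and 0 CPM. Ganglia and microglia overlapped, whereas no SpM or fat library reached the lowest ganglia library. SAM exceeded the other 4 groups by a log2 fold change of 3.90 ± 0.46 (SE), edgeR adjusted p = 3.32e-05, and fat lay below its other 4, at -4.05 ± 0.63 (SE), edgeR adjusted p = 4.16e-04. Transcripts of other cells of the nerve were also highest in fibers. So were the marker sums of erythroid cells (1671 to 4660 CPM), neutrophils (97.4 to 122) and fibroblasts (236 to 316). Endothelial and B cell sums were highest in SpM, and T cell and adipocyte sums of fibers overlapped those of other groups. Sympathetic neuron markers (12 genes) summed to 299 to 783 CPM in fibers, 114 to 159 in ganglia, 23.8 to 65.95 in sATM, 23.6 to 32.6 in microglia, 5.41 to 11.97 in vATM and 4.38 to 6.65 in SpM. Schwann cell and satellite glia markers (10 genes) summed to 713 to 715 CPM in fibers, 208 to 359.5 in ganglia, 344 to 396 in microglia, 177 to 204 in vATM, 77.4 to 119.9 in sATM and 3.66 to 12.02 in SpM. The astrocyte list, which shares S100b with the glia list, summed to 9.004 to 38.6 CPM in ganglia, 5.35 to 14.03 in sATM and 4.18 to 6.46 in vATM. Th, the enzyme that starts catecholamine synthesis, was at 59.2 CPM in fiber replicate 1 and 8.95 in replicate 2. In the same order, the astrocyte markers Aldoc, S100b and Slc4a4 were at 55.9 and 23.9, 33.5 and 10.6, and 9.57 and 4.16 CPM, while Aqp4 was at 6.58 and 11.7, Gja1 at 4.78 and 5.21, Gfap at 0 and 1.25, Aldh1l1 at 0 and 0.625 and Gjb6 at 0 and 0.416. The part of these cells in the Slc1a2 values was not tested.

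Slc1a4 (ASCT1), a neutral amino acid exchanger, was low throughout but reached 10.4, 3.93 and 5.32 CPM in microglia, above every other library (the highest was 2.95 CPM, in SpM). It was called across the groups (edgeR adjusted p = 0.0336) and in microglia against the rest (adjusted p = 0.00278). No fold is given because both sATM libraries list it at 0. The call across the groups was lost without any of 8 libraries (both sATM, both vATM, SpM replicates 1 and 2, microglia replicates 1 and 3; adjusted p from 0.0565 to 0.157).

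**Figure D2:**
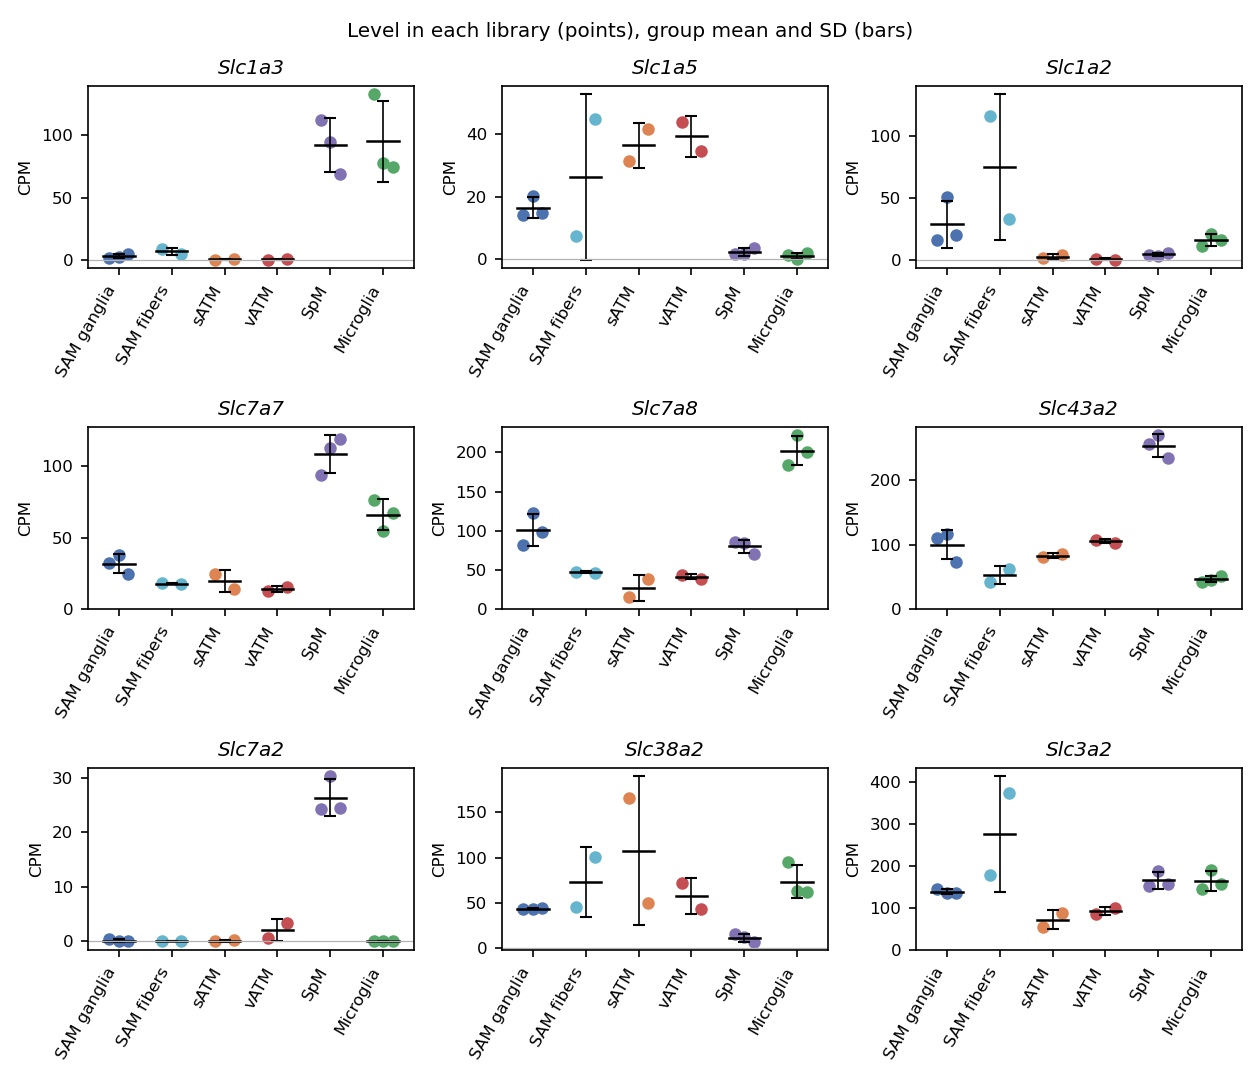
Each panel shows 1 gene, with its level in CPM on a linear axis; points are libraries, horizontal bars the group means and whiskers the SD. SpM and microglia points for Slc1a3 lie between 69.2 and 133 CPM and all others under 9, while for Slc1a5 they lie under 4 and the fat points between 31.3 and 43.8.

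The heavy chain Slc3a2, which carries the Slc7 light chains to the surface, was expressed in all libraries and lowest in fat (NM_001161413, chr19:8706882-8723369, minus strand). It stood at 56.3 and 89.1 CPM in sATM and 85.4 and 99.2 in vATM. Ganglia held 145, 135 and 135 CPM, SpM 152, 189 and 157 and microglia 144, 191 and 158. The fiber libraries differed from each other, with 178 and 373 CPM, and both were above all sATM and vATM libraries. Fat lay below the other 4 groups, with a log2 fold change of -1.13 ± 0.21 (SE), edgeR adjusted p = 0.00213, and no fat library overlapped the others. Leaving out fiber replicate 2 moved this to -0.95, edgeR adjusted p = 0.00137, under the fold threshold; without sATM replicate 1 it was -0.88, edgeR adjusted p = 0.0693, and without vATM replicate 1 -0.97, edgeR adjusted p = 0.0923. The call across the 6 groups (edgeR adjusted p = 0.00537) was lost without sATM replicate 1 or either vATM library (adjusted p from 0.0564 to 0.0859). Fibers exceeded sATM by 1.92 ± 0.35 (SE), edgeR adjusted p = 0.00632. Without sATM replicate 1 that difference was 1.41, edgeR adjusted p = 0.169, and on uncorrected gene-body counts it turned to -0.14, edgeR adjusted p = 0.928.

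The light chains decide what the CD98 complex carries. Slc7a8 (LAT2), which exchanges neutral amino acids, was highest in microglia (NM_016972, chr14:54722215-54781886, minus strand). Its microglial levels were 184, 222 and 201 CPM, against 81.96, 123 and 98.9 in ganglia and 85.8, 83.9 and 70.6 in SpM. Fibers held 48.1 and 46.8 CPM, vATM 43.5 and 39.2 and sATM 15.8 and 38.6. The microglia libraries lay above all others and the fat libraries below all others. Microglia exceeded the rest by a log2 fold change of 1.92 ± 0.21 (SE), edgeR adjusted p = 5.84e-06, and fat lay below its other 4 groups, at -1.48 ± 0.23 (SE), edgeR adjusted p = 3.59e-04.

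Slc7a7 (y+LAT1), which exports arginine and lysine in exchange for neutral amino acids and sodium and whose loss in humans causes lysinuric protein intolerance, peaked in spleen (NM_001253679, chr14:54369442-54417679, minus strand). SpM libraries held 93.5, 113 and 119 CPM and microglia 76.1, 54.5 and 67.2. Ganglia held 32.3, 37.9 and 24.7 CPM and fibers 18.2 and 17.7. The fat groups were at 24.9 and 14.4 CPM (sATM) and 12.4 and 15.5 (vATM). SpM, microglia and the remaining groups formed 3 levels that did not overlap. SpM exceeded the rest by a log2 fold change of 2.10 ± 0.20 (SE), edgeR adjusted p = 1.24e-06, and microglia the rest by 1.24 ± 0.21 (SE), edgeR adjusted p = 3.93e-04. The direct difference of SpM and microglia did not pass the test (0.71 ± 0.28 (SE), edgeR adjusted p = 0.132). Fat lay below its other 4 groups, at -1.44 ± 0.22 (SE), edgeR adjusted p = 3.31e-04.

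Of the summed RPKM of the 6 light chains Slc7a5, Slc7a6, Slc7a7, Slc7a8, Slc7a10 and Slc7a11, Slc7a7 made up 70.3 ± 4.40% (SD, n = 3) in SpM, 35.3 ± 5.10% in microglia and 35.6 ± 5.34% in ganglia. In fibers it made up 37.1 ± 0.389% (SD, n = 2) and in vATM 34.0 ± 3.62%. Slc7a8 made up 27.5 ± 4.25% in SpM, 57.1 ± 6.62% in microglia and 59.5 ± 4.65% in ganglia, with 51.7 ± 0.611% in fibers and 53.1 ± 6.22% in vATM. The SpM range of the Slc7a7 share, 65.8 to 74.6%, lay above the range of microglia, 30.1 to 40.3%. With 3 libraries a side, an exact permutation test could not go below p = 0.10, and none was run. The sATM libraries disagreed: Slc7a7 made up 64.2% in replicate 1 and 34.7% in replicate 2.

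**Figure D3:**
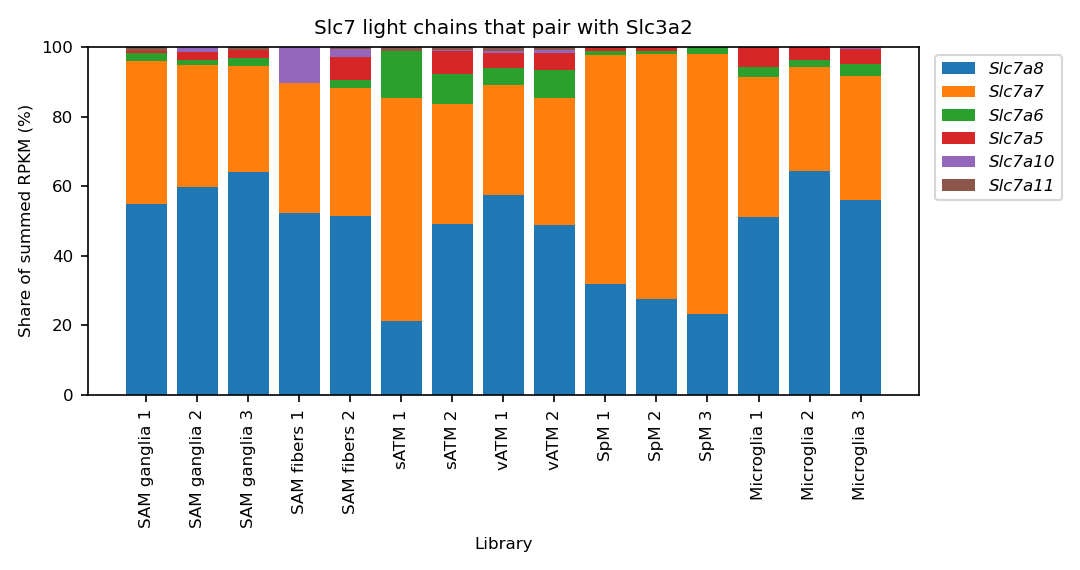
Stacked bars give each light chain's share of the summed RPKM of 6 Slc7 genes (vertical axis, percent) in each library (horizontal axis). Slc7a7 is the largest part in the 3 SpM libraries and sATM replicate 1, and Slc7a8 is the largest in the other 11.

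Slc7a5 (LAT1), the importer of leucine and other large neutral amino acids, was highest in microglia (NM_011404, chr8:121881146-121907686, minus strand). Levels there were 16.9, 10.9 and 13.98 CPM, above every other library. Ganglia held 1.15, 4.12 and 3.01 CPM, fibers 0 and 5.21, sATM 0 and 4.48, vATM 2.87 and 3.44 and SpM 2.25, 2.84 and 0. The groups did not overlap, yet the difference of microglia from the rest did not pass the test (2.48 ± 0.85 (SE), edgeR adjusted p = 0.0616), nor did the test across the 6 groups (adjusted p = 0.34). Slc7a11 (xCT), which imports cystine for glutathione synthesis in exchange for glutamate, was at 0 to 3.46 CPM in all 15 libraries and did not pass the test across groups (adjusted p = 0.851; NM_011990, chr3:50364936-50443613, minus strand). Slc7a6 (y+LAT2) reached 9.43, 6.46 and 11.4 CPM in microglia and 0 to 9.17 elsewhere (adjusted p = 0.17).

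The promoter of Slc7a11 is shown because it holds matches to the amino acid response element, through which the transcription factor ATF4 is known to act on this gene. The motif TGATGNAA (N is any base; both strands searched) occurred in 3.45% of 32851 RefSeq promoter windows of 250 bases upstream of a gene start, build GRCm38.p6. Among the transporter genes, 33 of 44 symbols had such a window (44 windows in all), and 3 windows held the motif, 1 of Slc7a11 and 2 of Slc7a7. The window of Slc7a11 (chr3:50443614-50443863, minus strand) is written 5′ to 3′ with both matches in capitals:
Slc7a11: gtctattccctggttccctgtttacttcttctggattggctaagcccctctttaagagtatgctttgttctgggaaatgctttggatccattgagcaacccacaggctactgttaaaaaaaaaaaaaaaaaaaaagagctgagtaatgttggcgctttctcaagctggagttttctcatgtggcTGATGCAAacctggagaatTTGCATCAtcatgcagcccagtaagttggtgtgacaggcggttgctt

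Cationic amino acid transporters bring arginine and lysine in without a heavy chain. Slc7a2 (CAT2), the carrier that inducible nitric oxide and arginase pathways of macrophages draw on, was present in spleen (NM_001044740, chr8:40862367-40922070, plus strand). SpM libraries held 24.4, 30.3 and 24.5 CPM. Values were 0.599 and 3.44 in vATM, 0 and 0.230 in sATM and 0.462, 0 and 0 in ganglia, and the gene was listed at 0 in both fiber and all 3 microglia libraries. All SpM libraries lay above all others, and SpM against the rest was called (edgeR adjusted p = 5.74e-06); no fold is given against groups listed at 0. The uncorrected table counted 695, 678 and 737 reads over the gene in SpM, 1177 and 434 in fibers and 12, 393 and 272 in microglia, and on that table the call was lost (1.98, edgeR adjusted p = 0.238). Slc7a1 (CAT1), the widely expressed cationic carrier, did not separate the groups, whose means ran from 6.81 ± 1.62 CPM (SD) in SpM to 11.1 ± 8.48 in fibers (NM_007513, chr5:148327410-148399904, minus strand). Libraries of the 6 groups overlapped, and the test across groups gave an adjusted p of 0.939.

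Slc7a14, a lysosomal relative of the cationic carriers known mainly from neurons, was low and highest in SAM (NM_172861, chr3:31202856-31310319, minus strand). Fibers held 18.2 and 6.25 CPM and ganglia 3.23, 3.72 and 5.01. The other groups held 1.53 and 0.230 (sATM), 0.239 and 0.615 (vATM), 0, 0 and 0.304 (SpM) and 0.173, 0 and 0.608 CPM (microglia). All SAM libraries lay above all others, and SAM exceeded the other 4 groups by a log2 fold change of 4.42 ± 0.82 (SE), edgeR adjusted p = 0.00237. On uncorrected gene-body counts the SAM difference was 0.82, edgeR adjusted p = 0.706. The fiber libraries held 2186 and 674 uncorrected reads over the gene, against 61.1 and 29.95 corrected counts. By limma on log2(RPKM + 1) the SAM difference was 0.77, under the fold threshold. The sympathetic neuron markers given above for Slc1a2 were also highest in fibers and next highest in ganglia. The Schwann cell and satellite glia markers did not follow Slc7a14 across all groups, with 344 to 396 CPM in microglia and 208 to 359.5 in ganglia. The part of these cells was not tested. The call across the groups was lost without fiber replicate 1 (5.23, edgeR adjusted p = 0.0829), and the SAM call without both fiber libraries (3.61, edgeR adjusted p = 0.0593).

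Slc38a2 (SNAT2), a plasma membrane carrier of small neutral amino acids whose transcript is known to rise when cells lack amino acids, was lowest in spleen (NM_175121, chr15:96687392-96699698, minus strand). SpM held 16.1, 12.03 and 6.999 CPM. The other groups held 43.6, 43.03 and 44.7 (ganglia), 46.03 and 100.6 (fibers), 166 and 49.8 (sATM), 71.8 and 43.8 (vATM) and 94.8, 63.4 and 62.6 CPM (microglia). No SpM library reached any other, and sATM replicate 1 held the highest value. SpM lay below the rest, with a log2 fold change of -2.53 ± 0.41 (SE), edgeR adjusted p = 3.07e-04. Slc38a1 (SNAT1), the related glutamine importer, was lower in SAM (NM_001166458, chr15:96571418-96642913, minus strand). Its values were 13.4, 25.2 and 7.42 CPM in ganglia and 11.1 and 21.6 in fibers, against 69.01 and 37.9 in sATM and 36.5 and 23.6 in vATM. SpM held 37.9, 29.5 and 38.3 CPM and microglia 37.5, 28.6 and 31.8. The SAM range overlapped vATM, and the difference of SAM from the other 4 groups was -1.21 ± 0.30 (SE), edgeR adjusted p = 0.0159. It was lost without fiber replicate 1 (-1.02, edgeR adjusted p = 0.0749) or vATM replicate 1 (-1.20, edgeR adjusted p = 0.0501).

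Slc38a6, a member with less settled substrates, was highest in spleen (NM_001037717, chr12:73286848-73354045, plus strand). SpM held 44.9, 44.4 and 52.04 CPM. The other groups ran lower, with 9.004, 11.02 and 4.21 in ganglia, 8.67 and 17.7 in fibers, 4.84 and 9.54 in sATM, 12.7 and 14.1 in vATM and 13.1, 13.2 and 10.3 in microglia. SpM did not overlap them and exceeded them by a log2 fold change of 2.16 ± 0.28 (SE), edgeR adjusted p = 3.65e-05.

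On the lysosome, Slc38a7 (SNAT7) exports glutamine and asparagine freed from digested protein (NM_172758, chr8:95835923-95853491, minus strand). Microglia held 38.3, 42.9 and 38 CPM and SpM 35.1, 39.7 and 40.5. Ganglia held 6.46, 27.4 and 19.1 CPM, fibers 11.4 and 15.2, sATM 9.42 and 9.89 and vATM 14.6 and 18.2. The 6 SpM and microglia libraries lay above the other 9. Microglia exceeded the rest by a log2 fold change of 1.22 ± 0.29 (SE), edgeR adjusted p = 0.00679, and SpM the rest by 1.16 ± 0.29 (SE), edgeR adjusted p = 0.01. The first was lost without microglia replicate 1 (1.16, edgeR adjusted p = 0.0639), the second without SpM replicate 2 (1.14, edgeR adjusted p = 0.0562) or replicate 3 (1.13, edgeR adjusted p = 0.0548). Slc38a9, the lysosomal arginine sensor that signals to mTORC1, varied widely within groups (NM_178746, chr13:112660766-112738752, plus strand). It was at 11.8, 21.2 and 2.61 CPM in ganglia and 0 and 5.41 in fibers. The other groups held 20.9 and 11.5 (sATM), 16.2 and 22.7 (vATM), 26.7, 20.7 and 26.02 (SpM) and 44.3, 17.96 and 27.97 CPM (microglia). SAM lay below the other 4 groups, at -1.90 ± 0.55 (SE), edgeR adjusted p = 0.0371, with overlapping libraries. Leaving out any of 12 libraries ended this call (adjusted p from 0.0549 to 0.0849); only leaving out ganglia replicate 2, fiber replicate 2 or microglia replicate 2 kept it. Without both fiber libraries it was -0.86, edgeR adjusted p = 0.344. Slc38a10 did not pass the test across tissues, with group means from 23.4 ± 0.829 CPM (SD) in SpM to 42.3 ± 11.3 in microglia (edgeR adjusted p across the groups = 0.297).

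Slc36a1 (PAT1) exports small amino acids from the lysosome with protons and is tied to mTORC1 signalling (NM_153139, chr11:55204340-55236330, plus strand). Microglia held 57.97, 66.2 and 68.7 CPM. SpM held 38, 42.8 and 33.02 CPM, ganglia 35.5, 35.99 and 31.5, sATM 26.2 and 28.5 and vATM 23.5 and 31.6. Fibers held 14.7 and 13.1 CPM. Microglia lay above all other libraries and fibers below all. Microglia exceeded the rest by a log2 fold change of 1.27 ± 0.18 (SE), edgeR adjusted p = 1.04e-04. Ganglia exceeded fibers by 1.31 ± 0.29 (SE), edgeR adjusted p = 0.0195. That second call was lost without any of 5 libraries (adjusted p from 0.0522 to 0.124; ganglia replicate 2, fiber replicate 1, vATM replicates 1 and 2, microglia replicate 1) and with RLE size factors (1.02, edgeR adjusted p = 0.0683). Slc36a2 (PAT2) was at 3.72, 0.281 and 2.74 CPM in microglia and at most 2.04 elsewhere, so the groups overlapped. Its call in microglia against the rest (edgeR adjusted p = 0.0353, no fold because both fiber libraries list it at 0 and the SpM estimates round to 0) was lost without any of 7 libraries, with adjusted p from 0.05 to 0.123 (ganglia replicate 2, sATM replicate 2, both vATM libraries, SpM replicate 2 and microglia replicates 1 and 3).

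The promoters of the lysosomal carriers Slc36a1 and Slc38a7 are shown because both hold CACGTG, the core of the element bound by TFEB, TFE3 and MITF, the factors known to regulate lysosomal genes. CACGTG is its own reverse complement and occurred in 6.02% of the 32851 windows, and in 7 of the 44 windows of transporter genes (Slc1a6, Slc1a7, Slc7a14, Slc36a1, Slc38a5, Slc38a7 and Slc43a1). Of the other lysosomal carriers described above, the window of Slc7a14 held CACGTG and that of Slc38a9 did not. TGANTCA, a loose pattern for the AP-1 site with any centre base, occurred in 6.75% of all windows and in 4 of the 44. The matches read TGAGTCA in Slc3a1, TGACTCA in Slc7a1 and TGATTCA in Slc38a7 and Slc38a10. GAGGAAGT, a site of the macrophage factor PU.1, occurred in 2.44% of all and in 0 of the 44. The 250 bases upstream of Slc36a1 (chr11:55204090-55204339, plus strand) and Slc38a7 (chr8:95853492-95853741, minus strand) follow, from RefSeq, build GRCm38.p6, with CACGTG and, in Slc38a7, the match TGATTCA to the AP-1 pattern in capitals. A match is only a run of letters and shows no binding.
Slc36a1: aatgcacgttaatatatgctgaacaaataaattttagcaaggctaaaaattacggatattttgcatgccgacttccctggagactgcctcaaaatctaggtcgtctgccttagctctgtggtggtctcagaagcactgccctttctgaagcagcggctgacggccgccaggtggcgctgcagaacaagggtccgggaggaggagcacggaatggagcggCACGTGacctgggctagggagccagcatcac
Slc38a7: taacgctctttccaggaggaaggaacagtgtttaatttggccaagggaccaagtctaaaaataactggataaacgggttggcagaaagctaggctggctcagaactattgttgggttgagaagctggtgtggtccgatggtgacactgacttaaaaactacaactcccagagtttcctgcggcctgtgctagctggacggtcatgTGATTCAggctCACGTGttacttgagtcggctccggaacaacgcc

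Slc43a2 (LAT4), a facilitator of branched-chain and aromatic amino acids, was highest in spleen (NM_001199284, chr11:75531694-75577572, plus strand). SpM held 256, 269.7 and 235 CPM. Ganglia held 111, 116 and 73.8 CPM, vATM 107 and 103 and sATM 80.5 and 85.7. Fibers held 43.04 and 62.7 CPM and microglia 42.7, 45.5 and 51.7. SpM lay above all other libraries; microglia overlapped fibers alone. SpM exceeded the rest by a log2 fold change of 1.78 ± 0.17 (SE), edgeR adjusted p = 1.61e-06, microglia lay below the rest, at -1.15 ± 0.21 (SE), edgeR adjusted p = 8.69e-04, and the direct difference of SpM and microglia was 2.44 ± 0.25 (SE), edgeR adjusted p = 5.04e-06. Computed by limma on the RPKM table, the microglial difference fell short of the fold threshold (-0.74 with a pseudocount of 1 and -0.79 with 0.1). Slc43a3, named in this family but known to carry purine nucleobases, was also highest in spleen (NM_021398, chr2:84936646-84958509, plus strand). SpM held 20.8, 22.8 and 21.3 CPM. The other groups held 0, 4.65 and 2.61 (ganglia), 3.59 and 1.46 (fibers), 1.27 and 5.17 (sATM), 3.35 and 2.83 (vATM) and 2.16, 3.37 and 5.78 CPM (microglia). SpM did not overlap them and exceeded them by 2.85 ± 0.56 (SE), edgeR adjusted p = 0.002. Across the 6 groups its call (adjusted p = 0.027) was lost without any 1 SpM library (adjusted p from 0.109 to 0.141).

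By comparison, microglia against the other 5 groups had 9 of 28 transporter genes called, 7 higher and 2 lower (all genes: 13.7%, with 7.26% higher and 6.47% lower). The higher ones were Slc1a3, Slc1a4, Slc7a7, Slc7a8, Slc36a1, Slc36a2 and Slc38a7, and the lower ones Slc1a5 and Slc43a2. SpM against its other 5 groups also had 9 called, 7 higher and 2 lower (all genes: 12.4%, with 6.72% higher and 5.72% lower). Higher were Slc1a3, Slc7a2, Slc7a7, Slc38a6, Slc38a7, Slc43a2 and Slc43a3, and lower Slc1a5 and Slc38a2. The median fitted log2 difference was 0.46 in microglia (all genes 0.29) and 0.32 in SpM (all genes -0.03). Neither median moved when 3 genes listed at 0 in a whole group (Slc1a4, Slc7a2 and Slc36a2) were set to a floor of 3 counts per library.

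Fat macrophages against the other 4 groups had 6 of 28 called, 1 higher and 5 lower (all genes: 8.56%, with 5.66% higher and 2.9% lower). Slc1a5 was higher, and Slc1a2, Slc1a3, Slc3a2, Slc7a7 and Slc7a8 were lower. The median was -0.26 (all genes -0.06), or -0.34 with the 3 genes at the floor. Without fiber replicate 2, Slc38a2 moved to 1.13, above the fold threshold, and Slc3a2 to -0.95, under it. Slc38a9, Slc7a6 and Slc7a6os moved to 2.31, 2.36 and 2.25 in that fit. Fiber replicate 1, then the only fiber library, lists these genes at 0, so their values rest on that 0. SAM against the other 4 groups had 5 called, Slc1a2, Slc1a5 and Slc7a14 higher and Slc38a1 and Slc38a9 lower (all genes: 9.15%, with 5.71% higher and 3.44% lower). The median was -0.38 (all genes 0.02), or -0.36 at the floor.

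**Figure D4:**
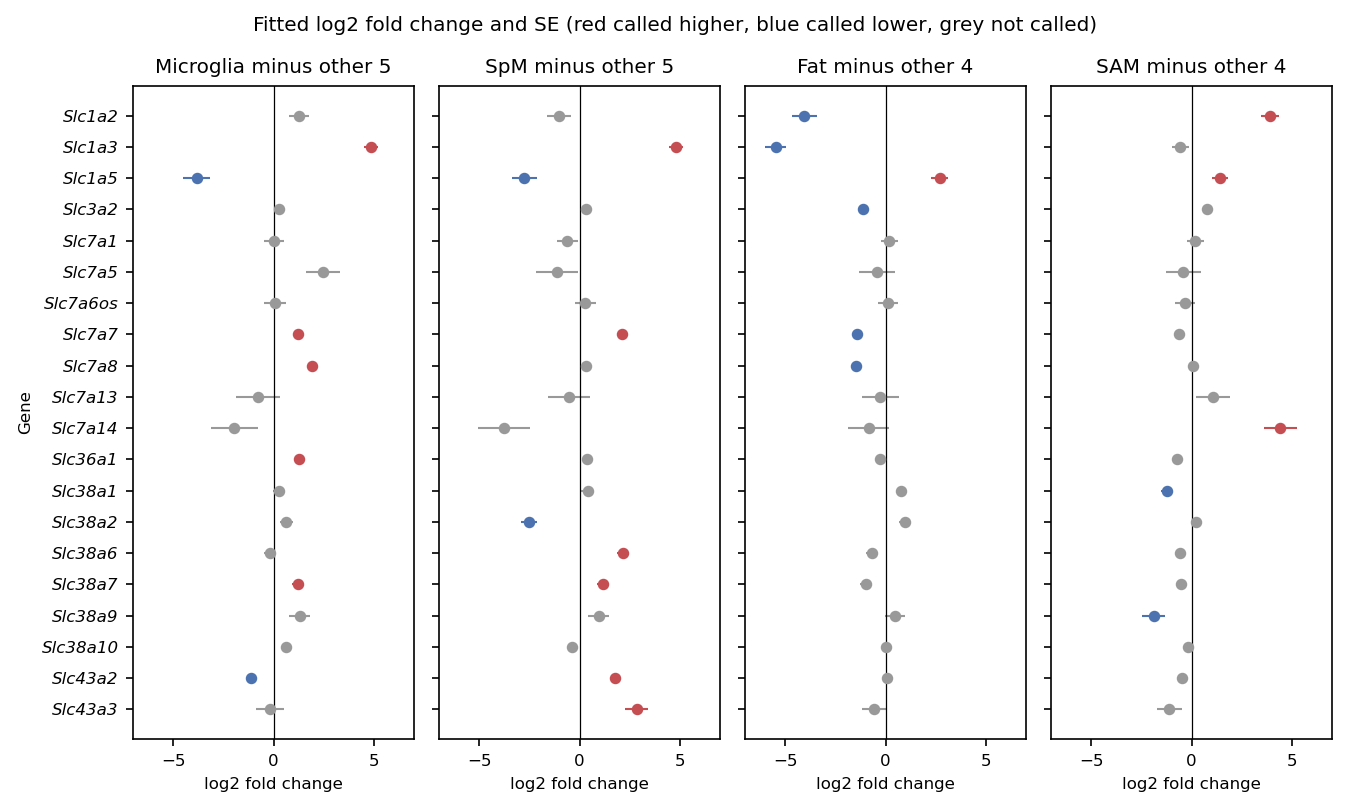
Points give the fitted log2 fold change and bars its SE (horizontal axis) for 20 transporter genes with a group mean of at least 10 CPM, in 4 comparisons; Slc7a2 is left out because 2 groups list it at 0. Slc1a3 lies near 5 in the microglia and SpM panels and at -5.49 in the fat panel, and Slc1a5 takes the opposite sign in each of them.

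Between neighbouring tissues, fewer genes were called. Fibers exceeded sATM, the fat they run through, in 3 of 28 genes and were lower in 0 (all genes: 4.84%, with 1.85% higher and 2.99% lower). These were Slc1a2 (4.75 ± 0.92 (SE), edgeR adjusted p = 0.00873), Slc1a3 (3.64 ± 0.78 (SE), edgeR adjusted p = 0.0145) and Slc3a2, given above. Without sATM replicate 1 none of the 3 passed, with 3.85, edgeR adjusted p = 0.0861 for Slc1a2 and 2.74, edgeR adjusted p = 0.1 for Slc1a3; without fiber replicate 1 the Slc1a3 value was 3.06, edgeR adjusted p = 0.0623. Without fiber replicate 2, these 3 stayed higher, and Slc1a5 and Slc38a1 were lower in fibers (-2.35 and -2.33). Slc38a9, Slc7a6 and Slc7a6os stood at -9.8, -8.8 and -9.5 in that fit. Those 3 values rest on fiber replicate 1 alone, which lists the genes at 0. The 10 immediate-early genes, which respond to cell isolation as well as to signals in tissue, summed to 20200.0 to 26830.0 CPM in fibers and 4390.0 to 6720.0 in sATM; their part was not tested.

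Ganglia exceeded fibers in 1 of 28, Slc36a1 (all genes: 4.11%, with 2.85% higher and 1.27% lower). The gene called and its direction changed with the processing. Slc36a1 was lost and Slc3a2 called lower in ganglia with RLE size factors (-1.23), without fiber replicate 1 (-1.43) and without the 3 libraries with most background DNA (-1.39). On log2(RPKM + 1), 2 genes were called, Slc3a1 (-1.31) and Slc7a13 (-2.06), both lower in ganglia, and DESeq2 called Slc36a1 higher and Slc3a2 and Slc7a13 lower. Without fiber replicate 2, Slc36a1 stayed higher in ganglia, and Slc43a2 stood at 1.29. Slc38a9, Slc7a6 and Slc7a6os rose to 9.4, 7.5 and 9.6 in that fit. Those values rest on fiber replicate 1 alone, which lists these genes at 0 with 1933, 849 and 245 uncorrected reads. Of all genes called in that comparison 69.2% were higher in ganglia, and with RLE size factors 50.3% were; for fibers against sATM the share higher was 38.2%, and 57.1% with RLE. Subcutaneous and visceral fat macrophages differed in 0 of 28 by edgeR and by DESeq2 (all genes by edgeR: 0.0392%, 6 genes, 0.0196% higher and 0.0196% lower), with 3 at an unadjusted p below 0.05. Of all genes, DESeq2 called 113. With 2 libraries a side, small differences were not detectable at this depth. Among all 15 pairs of groups, fibers and SpM differed in the most transporter genes, 12 of 28 (all genes 16.8%). Against SpM, ganglia differed in 10 (9.56%), sATM in 10 (8.76%) and vATM in 6 (8.7%). Against microglia, fibers differed in 10 (16.4%), sATM in 8 (11.7%), vATM in 8 (10.7%) and ganglia in 4 (6.93%). Ganglia and sATM differed in 3 (2.68%), fibers and vATM in 3 (5.14%), and ganglia and vATM in 1 (1.85%). SpM and microglia, the groups with the highest share of counts on these genes, differed in 5 (all genes 11.1%): Slc7a2, Slc38a6 and Slc43a2 were higher in SpM, and Slc7a8 and Slc38a2 in microglia.

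**Figure D5:**
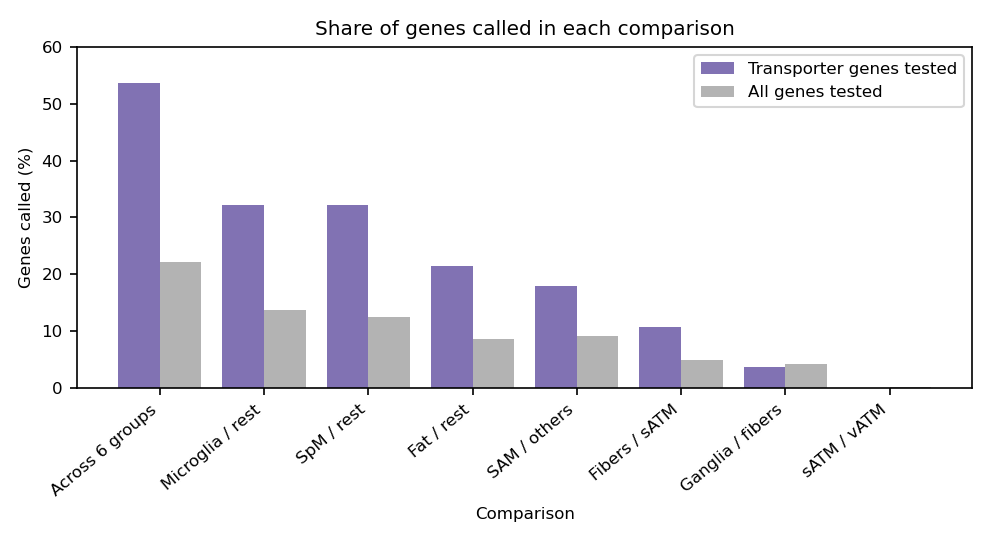
Bars give the percent of tested genes called (vertical axis, from 0) in each comparison, for the 28 transporter genes and for all 15289 genes. The transporter share is 53.6% against 22.1% across the 6 groups, and 3.57% against 4.11% for ganglia against fibers.

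In all, 5 lists of genes that work with amino acid transport were counted in the same fit. Of all genes, 22.1% were called across the groups, 13.7% in microglia (7.26% higher, 6.47% lower) and 12.4% in SpM (6.72% and 5.72%). The shares were 8.56% in fat (5.66% and 2.9%) and 9.15% in SAM (5.71% and 3.44%). The counts of each list below stand beside these shares, and nothing particular to a list was tested. Of 21 amino acid response genes tested, which ATF4 turns on when amino acids run short, 7 differed across the groups. In SpM 2 were higher and 6 lower, with a median log2 difference of -0.38 (all genes -0.03). Microglia had 1 higher and 2 lower, fat 5 higher and 0 lower, and SAM 4 higher and 0 lower. Cebpb and Nupr1 were lower in SpM (-2.26 ± 0.41 (SE), edgeR adjusted p = 0.001, and -3.59 ± 0.43 (SE), edgeR adjusted p = 1.75e-05), as was Ppp1r15a, which restarts translation (-2.67 ± 0.54 (SE), edgeR adjusted p = 0.00224). Ppp1r15a ran at 472 ± 287 CPM (SD, n = 2) in fibers and 2.87 ± 2.85 in microglia (n = 3). Phgdh, the first enzyme of serine synthesis, stood at 20.7 ± 4.94 CPM in microglia and under 0.5 in every other group mean, and was called in microglia against the rest (edgeR adjusted p = 1.40e-05). Immediate-early genes were also low in SpM (105 to 133 CPM) and microglia (167 to 177), and their part in these counts was not tested.

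Of 13 glutathione and NRF2 target genes tested, 8 differed across the groups (all genes 22.1%), with 4 higher and 1 lower in SpM (median 1.04, all genes -0.03) and 2 higher and 2 lower in microglia (median -0.50, all genes 0.29). Hmox1, which breaks down haem and is also on the list of red pulp markers, was at 509 ± 38.2 CPM in SpM against 2.80 ± 0.06 in microglia; SpM exceeded the mean of the other 5 groups by 4.67 ± 0.24 (SE), edgeR adjusted p = 2.28e-09. Prdx1, Gclm and Txnrd1, of peroxide removal, glutathione synthesis and thioredoxin reduction, were higher in SpM by 1.53 ± 0.17 (SE), edgeR adjusted p = 5.74e-06, 2.23 ± 0.44 (SE), edgeR adjusted p = 0.002 and 1.73 ± 0.41 (SE), edgeR adjusted p = 0.00731. Slc7a11, the cystine importer of that pathway, was at 1.08, 0 and 0 CPM in the same libraries.

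Of 27 genes of lysosomal amino acid sensing and mTORC1, 7 differed across the groups (all genes 22.1%), with 2 higher and 1 lower in microglia, 2 higher and 1 lower in SpM, 1 higher and 1 lower in fat, and 0 higher and 2 lower in SAM. Rptor, the scaffold subunit of mTORC1, was at 107 ± 19.5 CPM in microglia and 15.1 ± 4.497 in SpM, and microglia exceeded the rest by 2.40 ± 0.33 (SE), edgeR adjusted p = 6.80e-05. Sesn1, a leucine-sensing inhibitor, was higher in ganglia than fibers (1.81 ± 0.31 (SE), edgeR adjusted p = 0.00395). Of 19 enzymes of arginine, glutamine, glutamate and branched-chain amino acids, 5 differed across the groups (all genes 22.1%), with 1 higher and 3 lower in microglia (all genes 13.7%). Glul, which makes glutamine from glutamate, was at 258 ± 36.6 CPM in microglia and 62.8 ± 1.28 in sATM; microglia exceeded the mean of the other 5 groups by 1.09 ± 0.16 (SE), edgeR adjusted p = 1.07e-04. Glud1, which burns glutamate in mitochondria, was at 173 ± 16.7 CPM in sATM and 40.2 ± 0.777 in microglia; fat exceeded the mean of the other 4 groups by 1.39 ± 0.16 (SE), edgeR adjusted p = 2.66e-05. Of 13 other amino acid carriers, 4 differed (all genes 22.1%), with 2 higher and 0 lower in SpM (all genes 12.4%). Slc16a10 (TAT1), which passes aromatic amino acids, was at 123 ± 20.3 CPM in SpM and 9.78 ± 0.446 in microglia; SpM exceeded the mean of the other 5 groups by 2.81 ± 0.23 (SE), edgeR adjusted p = 2.34e-07.

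The remaining tested members were not called in any comparison by edgeR over all 15 libraries: Slc3a1, Slc7a4, Slc7a6os, Slc7a13 and Slc36a4, besides Slc7a1, Slc7a5, Slc7a6, Slc7a11 and Slc38a10. Slc7a13, a kidney carrier, was at 16.4 and 6.45 CPM in fibers and at most 4.67 elsewhere (adjusted p across the groups = 0.175). The 16 members below the filter were Slc1a1, Slc1a6, Slc1a7, Slc7a3, Slc7a9, Slc7a10, Slc7a12, Slc7a15, Slc36a1os, Slc36a3, Slc38a3, Slc38a4, Slc38a5, Slc38a8, Slc38a11 and Slc43a1. None of them exceeded 4.78 CPM in any library or 2.91 CPM in any group mean, so differences among them were not detectable at this depth. A floor of 3 counts corresponds to between 0.25 and 0.90 CPM.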

How the data were processed

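RNA of sorted macrophages from 6 tissues (15 libraries) was measured by low-input RNA sequencing. The authors deposited estimated counts per gene after removal of DNA contamination, whose method is not given in the sources used here. They also deposited an RPKM table with that correction and a table of raw counts over gene bodies without it. Per the submitters' processing notes, STAR, HOMER and build mm10 were used; no version or strand setting is recorded. Genes that share reads with near-identical copies may be split by the counting.

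Estimated counts were rounded and scaled by TMM. Genes were kept with edgeR's filterByExpr (minimum count 10), which left 15289. edgeR 4.0.16 (R 4.3.3) fitted 1 mean per group over all 15 libraries by quasi-likelihood, and p-values were adjusted by Benjamini-Hochberg over those genes. A gene was called at an adjusted p below 0.05 and a log2 difference of at least 1; single groups were compared with the mean of the others. Fitted folds depend on edgeR's prior count and are not given where a group lists a gene at 0. The SE beside a fold is the size of the fold divided by the square root of the F statistic of its test. It therefore restates that test and is not a separate estimate of the spread. Levels are CPM (counts per M, or mega, counts) after TMM, means carry the SD, and RPKM served to compare genes with each other. No interval was computed for single libraries; a floor of 3 counts covers counting error only, and reads without molecular identifiers are not independent molecules. RefSeq promoters of build GRCm38.p6 were searched for 4 motifs. The procedure was tested on simulated data with large changes in SpM alone and with less spread than these libraries. That test therefore does not show how the procedure performs in the smaller groups or on genes with low counts.

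Genes described library by library were those called in any comparison with a group mean of at least 10 CPM, and 11 carriers known from macrophage amino acid uptake or lysosomal sensing; up to 4 called genes were named per pathway list. The transporter genes and the pathway and marker lists were chosen with earlier results of these data known. Alternatives were DESeq2 1.42.0, RLE size factors, no filter, the replicate number as a block, removal of the genes that collect ribosomal RNA, the raw table, limma 3.58.1 on log2 of RPKM plus 1 or 0.1, a fit without both fiber libraries, and leaving out each library.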

Additional observations from a re-analysis of the deposited data

How the results depend on the processing

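Of the 48 calls of a transporter gene in a comparison, 47 were kept with RLE size factors (Slc36a1 in ganglia against fibers was lost), 47 of 47 with DESeq2, 47 with no filter on low counts, and 44 and 42 with limma on log2(RPKM + 0.1) and log2(RPKM + 1). On raw gene-body counts 7 were kept, 40 were lost and 1 reversed (Slc3a2 in fibers against sATM, -0.14); the counts of genes called were 2 across the groups, 1 in microglia, 3 in SpM, 1 in fat, and 0 in SAM, ganglia against fibers and fibers against sATM. Without both fiber libraries 38 of 44 were kept, and SAM had 2 called. Ganglia against fibers had 3 called with DESeq2, 2 with log2(RPKM + 1), and 0 with log2(RPKM + 0.1) or no filter; fibers against sATM had 9 with DESeq2 and 5 each with log2(RPKM + 1) and no filter. Leaving out each library gave 13 to 19 across the groups, 7 to 13 in microglia, 8 to 11 in SpM, 5 to 9 in fat, 2 to 7 in SAM, 0 to 5 for ganglia against fibers, 0 to 8 for fibers against sATM and 0 to 0 for sATM against vATM. A fit without the 3 libraries with most background DNA, chosen after seeing the data, kept 45 of 48. Apart from sATM against vATM, the highest count of each range over left-out libraries came without fiber replicate 2. That fit left fiber replicate 1, with its many levels of 0, alone in its group. The cause of these changes was not tested.

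Labels give groups the same replicate numbers. Correlations between groups were taken on each library's log2 deviation from its group mean. Not every same-numbered pair correlated above 0.1 (33 pairs, r from -0.38 to 0.64, median 0.10), and 60 other pairs had a median of -0.07. In groups of 2 libraries the deviations mirror each other, so many other pairs repeat same-numbered values with the sign turned. The 2 medians therefore cannot decide on pairing, and the main fit did not pair libraries by number. Among ganglia, sATM, vATM, SpM and microglia, all 10 pairs of replicate 1 were positive (0.18 to 0.64), and fiber replicate 1 ran opposite to them (-0.38 to -0.11). Those 5 libraries had the fewest olfactory receptor reads of their groups (31.6 to 98.0 per M); the cause was not tested. With the replicate block 45 of 48 calls were kept, and counts were 14 across the groups, 9 in microglia, 10 in SpM, 6 in fat, 4 in SAM, 1 and 3 between neighbouring tissues and 0 between the fat depots; calls lost were Slc1a5 in SAM, Slc36a2 in microglia and Slc1a4 across the groups. RLE moved the median log2 difference of all genes to 0.19 in SAM, -0.25 in ganglia against fibers and 0.28 in fibers against sATM, and the share of called genes that were higher in SAM from 62.4% to 72.3%. DESeq2 moved that share in fat from 66.1% to 48.2%. Fiber groups of 2 libraries and 46.1 to 71.5% of counts in the genes that collect ribosomal RNA limit the depth behind all values.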
